A study of Mus musculus with 8 samples.

Results

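The 37 interferon-induced genes described here are genes that cells are known to switch on in response to interferons. They were chosen by name, and every non-control probe that carried one of these names on the array was taken, which gave 57 of 41174 probes and at least 1 probe for each of the 37 genes. Each of 4 BTBR and 4 B6 mice gave hippocampal RNA for 1 single-color Agilent array, read in the Cy3 channel. The BTBR mice carried the genotype BTBR T+ Itpr3tf/J, an inbred strain used as a model of autism, and the B6 controls were wild type C57BL/6J. All mice were male, 5 months old and without drug treatment, and the tissue was the whole hippocampus. The labels list C57BL/6J as strain background for the BTBR mice as well, and the groups were taken from title, source and genotype. Since BTBR and B6 are separate inbred strains, each difference is one between strains and not the effect of a single allele.

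Interferons are secreted proteins that bind receptors on neighboring cells, and the receptors act through Janus kinases on STAT proteins. Type I interferons assemble a complex with STAT2 and IRF9 that binds the interferon-stimulated response element (ISRE), and interferon gamma acts mainly through STAT dimers at the gamma-activated site (GAS). The products sense viral RNA, block translation, tag proteins with ISG15, attack vacuoles that hold pathogens, and feed peptides to antigen presentation. In the brain, microglia, endothelium, astrocytes and neurons can all express them.

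Promoter sequences are shown first because the response element is the known route by which many of these genes are induced. Windows from 250 bases before to 50 bases after the transcription start (RefSeq, GRCm38.p6) were found for 29 of the 37 genes. The ISRE core was searched as GAAA followed by any 2 bases and GAAA, and the GAS core as TTCNNNGAA, on both strands, and matches of one may overlap matches of the other. The ISRE core was present in 15 of the 29 genes (51.7%), against 3.99% of 27025 genes with a window of the same length. The GAS core was present in 10 of the 29 genes (34.5%), against 9.55% of all genes. Capitals mark the ISRE core in the windows of a gene that was up-regulated in BTBR hippocampus (Eif2ak2), one that was down-regulated (Igtp) and one that was not called (Isg15, where 3 overlapping matches form a single run).
Eif2ak2 promoter, chr17:78882523-78882822, minus strand: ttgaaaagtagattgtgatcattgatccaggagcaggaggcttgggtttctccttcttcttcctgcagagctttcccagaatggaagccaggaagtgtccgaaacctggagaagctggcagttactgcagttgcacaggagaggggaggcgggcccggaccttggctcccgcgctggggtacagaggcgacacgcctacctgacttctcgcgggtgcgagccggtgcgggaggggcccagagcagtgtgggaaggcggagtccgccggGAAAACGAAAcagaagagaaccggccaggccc
Igtp promoter, chr11:58199306-58199605, plus strand: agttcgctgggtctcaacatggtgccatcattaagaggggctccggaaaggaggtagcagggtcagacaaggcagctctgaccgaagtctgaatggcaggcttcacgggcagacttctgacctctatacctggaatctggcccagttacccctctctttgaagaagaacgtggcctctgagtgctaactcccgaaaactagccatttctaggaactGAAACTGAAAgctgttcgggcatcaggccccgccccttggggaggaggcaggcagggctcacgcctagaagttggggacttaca
Isg15 promoter, chr4:156200769-156201068, minus strand: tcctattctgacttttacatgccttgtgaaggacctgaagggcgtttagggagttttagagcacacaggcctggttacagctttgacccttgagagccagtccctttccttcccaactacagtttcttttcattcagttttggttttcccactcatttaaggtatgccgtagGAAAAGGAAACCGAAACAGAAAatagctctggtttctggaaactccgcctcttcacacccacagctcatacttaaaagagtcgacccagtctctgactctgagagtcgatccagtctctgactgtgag
Parp14, Usp18, Dhx58, Mx2, Mx1, Iigp1, Parp9 and Ifi27 had no window in the table.

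All levels below are log2 normalized intensities, and all differences are BTBR minus B6 on that log2 scale. A probe entered the test when at least 75% of the B6 or of the BTBR arrays read it well above background, and it was called when limma's adjusted p (Benjamini-Hochberg over all 27982 tested probes) was under 0.05. Of the 57 probes, 36 passed the background flag on each of the 8 arrays, 10 on none and 11 on some, and no probe was saturated. The test covered 41 probes of 34 genes. Ifit1, Ifi44 and Mx1 had no tested probe, and their 5 probes passed the background flag on at most 2 of 8 arrays. The share of all probes well above background, which stands for depth on these arrays, ran from 56.8% to 71.9% on B6 arrays and from 61.9% to 71.5% on BTBR arrays. The arrays lay on 2 slides that each held 2 mice of each strain, so slide and strain were balanced.

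Of the 41 tested probes, 5 were called (12.2%), against 7.61% of all tested probes. Eif2ak2, Trim25 and Irf9 were up-regulated in BTBR hippocampus, 3 of 41 probes against 3.31% of all probes called in that direction. Xaf1 and Igtp were down-regulated, 2 of 41 against 4.3%. The 41 differences ran from -0.84 to 0.69 with a median of -0.05, against a median of 0.01 over all tested probes, and 24 were below 0 and 17 above. No probe of these genes differed by more than 1, whereas 461 of all tested probes (1.65%) did. With the alternative that starts from the processed signal of the scanner software, 2 of them (Eif2ak2 at 1.20 and Xaf1 at -1.18) and 4.62% of all tested probes differed by more than 1. The levels of BTBR and B6 did not overlap for 9 of the 41 probes (22%), against 14.2% of all probes, and an unadjusted p under 0.05 was reached by 11 of 41, against 18.5%. The calls fell in both directions, and no test set these shares against those of the array. The genes were chosen with earlier results of these data known, so the shares are descriptive only. Because RNA of the whole hippocampus was measured, fewer cells of a type and less RNA per cell cannot be told apart for any of these genes.

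**Figure D1:**
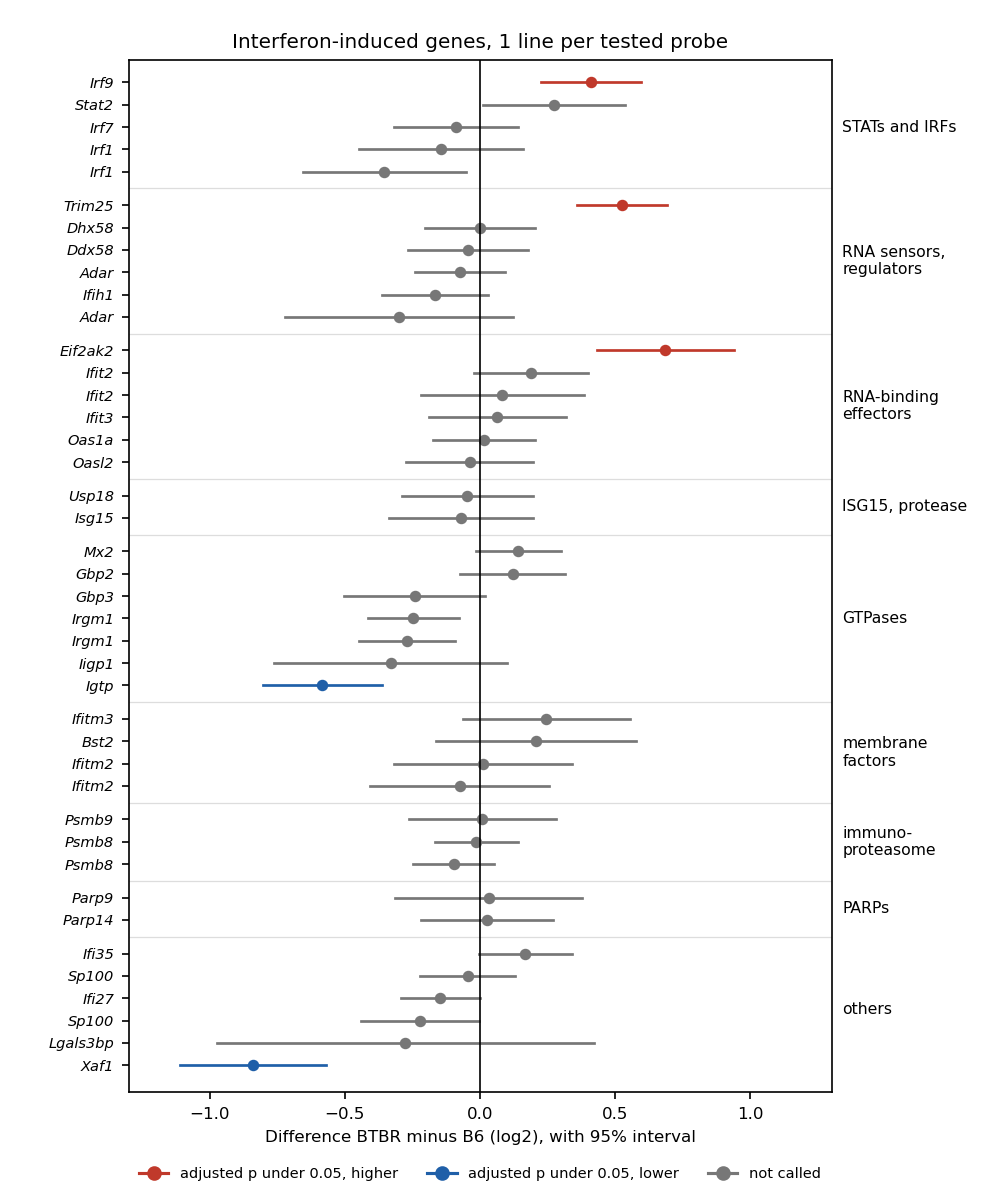
Difference between BTBR and B6 hippocampus for the 41 tested probes of interferon-induced genes, grouped by role. Points are BTBR minus B6 on the log2 scale, lines are 95% intervals from limma (n = 4 mice per strain), red and blue mark an adjusted p under 0.05; 3 probes lie to the right, 2 to the left, and the other 36 cluster around 0 between -0.35 and 0.27.

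Among the signal transducers and transcription factors (Stat2, Irf9, Irf1 and Irf7), 1 of 5 tested probes was called. Irf9, the DNA-binding subunit of the complex that binds the ISRE, was read by its probe at chr14:56228256-56228315 (mm9, the build of all probe positions given here). Its level was 10.38, 10.38, 10.63 and 10.41 in the B6 mice and 10.97, 10.87, 10.74 and 10.85 in the BTBR mice. The strains did not overlap, but the B6 mouse of replicate 3 stood nearer to the lowest BTBR mouse than to any other B6 mouse. The difference was 0.41 ± 0.08 (SE, n = 4 mice per strain), a 1.33-fold rise, with a limma adjusted p of 0.0153. This call was the least steady of the 5. It was lost without the B6 mouse of replicate 2 (limma adjusted p = 0.0555) and without that of replicate 4 (limma adjusted p = 0.0526). It was also lost with median centring (limma adjusted p = 0.0591), with the replicate block and within slide 2 (limma adjusted p = 0.326). The rank product lost it too (estimated share of false predictions 0.235). The slides gave 0.55 (slide 1) and 0.27 (slide 2). A second Irf9 probe was well above background on 1 of 8 arrays and was not tested.

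Stat2, the partner of Irf9 in that complex, was not called at a difference of 0.27 (95% interval 0.01 to 0.54, limma adjusted p = 0.249). Its level ran from 11.17 to 11.56 in B6 and from 11.46 to 11.86 in BTBR mice, so that the strains overlapped. Irf1, the transcription factor that interferon gamma induces, had the lowest difference of the group. It read 11.69, 11.64, 11.78 and 11.82 in the B6 mice and 11.19, 11.08, 11.63 and 11.62 in the BTBR mice. The strains did not overlap, and the pair of BTBR mice on slide 1 were the lowest of all. The difference of -0.35 was not called in the test of strain alone (limma adjusted p = 0.182) and was called with slide as a block (limma adjusted p = 0.0415). Within slides it was -0.54 on slide 1, where it was called (limma adjusted p = 0.0111), and -0.17 on slide 2, where it was not. The other Irf1 probe gave -0.14 and was not called, nor was Irf7, the factor that amplifies type I interferon production.

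The RNA sensors and their regulators (Ifih1, Ddx58, Dhx58, Trim25 and Adar) had 1 call in 6 tested probes. Trim25, the ubiquitin ligase that activates the sensor RIG-I (Ddx58), was up-regulated at its probe at chr11:88881205-88881264. Its level was 10.57, 10.41, 10.55 and 10.40 in the B6 mice and 11.06, 10.98, 11.11 and 10.88 in the BTBR mice. Every BTBR mouse lay above every B6 mouse, and the spread was alike in both strains (SD 0.09 in B6 and 0.10 in BTBR). The difference was 0.52 ± 0.07 (SE, n = 4 mice per strain), a 1.44-fold rise, with a limma adjusted p of 0.00221. It was 0.53 on slide 1 and 0.52 on slide 2. The call was lost within slide 2 (limma adjusted p = 0.0609) and with the rank product, the test named in the methods (estimated share of false predictions 0.0864). A second Trim25 probe was well above background on no array. The other 5 probes of the group, the sensors Ddx58, Ifih1 and Dhx58 among them, had differences of -0.30 and above, none of them over 0, with no call. The lowest, -0.30, came from a probe of Adar, the enzyme that edits adenosine to inosine in double-stranded RNA. Its levels were 13.47 to 13.55 in B6 mice and 13.32 to 13.53 in 3 BTBR mice, and the BTBR mouse of replicate 3 read 12.57, without which the difference was -0.09.

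Eif2ak2 encodes PKR, the kinase that halts translation when it binds double-stranded RNA, and it had the largest rise of the 41 tested probes. At its probe at chr17:79252168-79252227 the level was 8.27, 8.65, 8.64 and 8.65 in the B6 mice and 9.30, 9.36, 9.02 and 9.27 in the BTBR mice. The strains did not overlap, and the B6 mouse of replicate 1 lay below the other 3 B6 mice, which were nearly equal. The difference was 0.69 ± 0.11 (SE, n = 4 mice per strain), a 1.61-fold rise, with a limma adjusted p of 0.00506. Without that low B6 mouse it was 0.59. Slide 1 gave 0.87 and slide 2 gave 0.50. The call held with slide as a block (limma adjusted p = 0.0085) and was lost within slide 2 (limma adjusted p = 0.154). Starting from the processed signal, Eif2ak2 differed by 1.20 and was still called.

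The other RNA-binding effectors had smaller differences. Ifit1, Ifit2 and Ifit3 bind foreign RNA and block its translation, and the 2'-5' oligoadenylate synthetase Oas1a activates an RNA-degrading enzyme, while Oasl2 is a member of the same family. The 5 tested probes of Ifit2, Ifit3, Oas1a and Oasl2 had differences from -0.04 to 0.19, and limma called none at an adjusted p under 0.05, or at an unadjusted one. Oasl2 was the lowest of the group, and its levels of 9.15 to 9.43 in B6 and 9.00 to 9.37 in BTBR mice overlapped. The single Ifit1 probe was well above background in 2 of 4 BTBR mice and in no B6 mouse, but its levels of 7.83 to 7.97 in B6 and 7.64 to 7.97 in BTBR mice overlapped, and no fold is given.

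**Figure D2:**
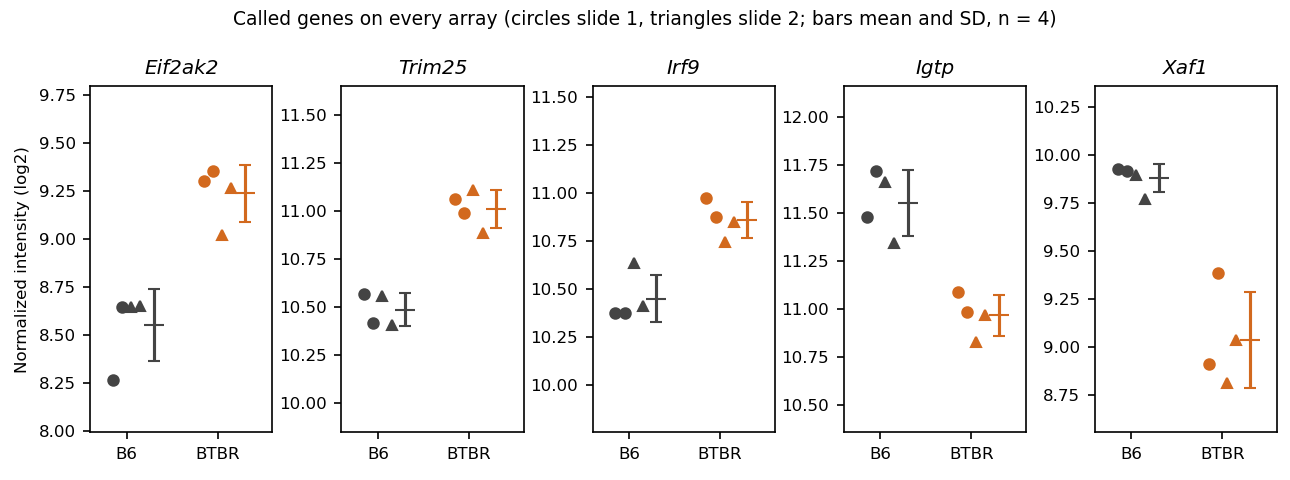
Level of the 5 called genes on every array, as log2 normalized intensity. Each point is 1 mouse (circles for slide 1, triangles for slide 2), bars give mean and SD of 4 mice, all panels span the same range of 1.8; in each panel no B6 point overlaps the BTBR points, and the narrowest gap is that of Irf9.

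ISG15, the ubiquitin-like protein that is attached to other proteins, and its protease Usp18 are among the most inducible genes of the response. Isg15 levels were 9.16, 9.03, 9.39 and 8.95 in the B6 mice and 9.03, 8.93, 8.98 and 9.30 in the BTBR mice. The strains overlapped fully, with the highest mouse in B6 and the lowest in BTBR. The difference was -0.07 with a 95% interval of -0.34 to 0.19, and that of Usp18 was -0.05 with an interval of -0.29 to 0.19. Limma called neither at an adjusted p under 0.05, or at an unadjusted one.

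Among the GTPases, 1 of 7 tested probes was called, and both directions were seen. Igtp (Irgm3), one of the immunity-related GTPases that act on vacuoles holding pathogens, was down-regulated at its probe at chr11:58020927-58020986. Its level was 11.48, 11.72, 11.66 and 11.35 in the B6 mice and 11.09, 10.99, 10.83 and 10.97 in the BTBR mice. All BTBR mice lay below all B6 mice, the nearest pair being B6 replicate 4 and BTBR replicate 1. The difference was -0.58 ± 0.10 (SE, n = 4 mice per strain), so that the B6 level was 1.5-fold the BTBR level, with a limma adjusted p of 0.00600. It was -0.56 on slide 1 and -0.61 on slide 2. The call was lost within slide 1 (limma adjusted p = 0.0514) and within slide 2 (limma adjusted p = 0.0703). It was also lost with the rank product, the test named in the methods (estimated share of false predictions 0.0672).

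Irgm1, a regulatory member of the same family, gave the same sign at its 2 tested probes. The first read 10.76, 10.77, 10.85 and 10.80 in the B6 mice and 10.44, 10.40, 10.54 and 10.71 in the BTBR mice, and the second ran from 10.05 to 10.19 in B6 and from 9.75 to 10.01 in BTBR mice. The strains did not overlap at either probe. The differences of -0.27 (limma adjusted p = 0.0782) and -0.25 (limma adjusted p = 0.0931) were not called in the test of strain alone. The first was called with slide as a block (limma adjusted p = 0.042) and without the BTBR mouse of replicate 4 (limma adjusted p = 0.0254).

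Iigp1, a further GTPase of this family, was singled out after its values were seen because its difference was unlike on the slides. It was -0.77 on slide 1, where it was called (limma adjusted p = 0.0119), and 0.11 on slide 2, for -0.33 over all mice (95% interval -0.76 to 0.10). In limma's test of a difference between slides, 0 of 27982 probes passed the adjusted threshold and 2780 an unadjusted p under 0.05, and Iigp1 had an adjusted p of 0.401. The guanylate-binding proteins Gbp2 and Gbp3 and the dynamin-like GTPase Mx2 were not called. Mx2 had the highest difference of the group, 0.14, with levels of 8.66 to 8.80 in B6 and 8.72 to 8.96 in BTBR mice.

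The membrane restriction factors Bst2 (tetherin), Ifitm2 and Ifitm3, which hold back budding or entering viruses, had no call in 4 tested probes, and none reached an unadjusted p under 0.05 in limma. Their differences ran from -0.08 to 0.24. Ifitm3 held the highest, with levels of 12.30, 12.27, 12.58 and 12.18 in the B6 mice and 12.92, 12.48, 12.31 and 12.59 in the BTBR mice. The strains overlapped, and slide 1 gave 0.42 against 0.07 for slide 2. Without the BTBR mouse of replicate 1 the Ifitm3 difference was 0.13. The Ifitm2 probe with the lowest difference is listed at chr7:54087914-54087973, far from the other Ifitm2 probe at chr7:148140912-148140971, so its assignment to the gene is uncertain.

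The immunoproteasome subunits Psmb8 and Psmb9, which shape peptides for class I presentation, were not called at any of 3 tested probes, with differences from -0.10 to 0.01 and no unadjusted limma p under 0.05. Psmb9 varied little between B6 mice (10.57 to 10.61) and split by slide in BTBR mice, which read 10.41 and 10.34 on slide 1 and 10.81 and 10.84 on slide 2. Parp9 and Parp14, ADP-ribosyltransferases of the interferon response, had differences of 0.03 and 0.03, and neither was called or reached an unadjusted limma p under 0.05.

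Of the other interferon-induced genes, Xaf1 had the largest fall of the 41 tested probes. Xaf1 binds the apoptosis inhibitor XIAP and promotes cell death. Its probe spans a splice junction, as its 60 bases are listed over chr11:72120129-72122142. Levels were 9.92, 9.92, 9.90 and 9.77 in the B6 mice and 8.91, 9.39, 8.81 and 9.04 in the BTBR mice. The B6 mice were tightly grouped (SD 0.07), the BTBR mice were spread more widely (SD 0.25), and all lay below the lowest B6 mouse. The difference was -0.84 ± 0.12 (SE, n = 4 mice per strain), so that the B6 level was 1.79-fold the BTBR level, with a limma adjusted p of 0.00224. Slide 1 gave -0.77 and slide 2 gave -0.91, and the fall was called under all 22 alternatives tried. The probes of both down-regulated genes are shown because each of these results rests on this single 60-base stretch.
Igtp probe: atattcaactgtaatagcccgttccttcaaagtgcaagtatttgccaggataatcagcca
Xaf1 probe: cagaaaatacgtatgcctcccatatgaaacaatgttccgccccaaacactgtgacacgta

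Ifi27, a mitochondrial protein, differed by -0.15 without overlap of the strains (15.11 to 15.27 in B6, 14.97 to 15.08 in BTBR mice) and was not called (limma adjusted p = 0.26). Sp100, a nuclear body protein, gave -0.22 (limma adjusted p = 0.263) and -0.05 at its 2 tested probes. Ifi35 had the highest difference of this group, 0.17, and was not called. Lgals3bp, a secreted glycoprotein named after its values were seen, had the widest spread between BTBR mice of the 41 probes (SD 0.66). It read 13.39, 13.68, 13.96 and 13.21 in the B6 mice and 14.02, 13.65, 12.66 and 12.81 in the BTBR mice. The highest mouse was a BTBR mouse of slide 1 and the lowest pair were the BTBR mice of slide 2, and the difference of -0.28 had a 95% interval of -0.97 to 0.42. With single mice left out it ran from -0.52 (without the BTBR mouse of replicate 1) to -0.07 (without that of replicate 3).

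For each of the 5 called probes the exact two-sided permutation test over the 8 mice gave p = 0.0286, the smallest that 4 against 4 can give. The intervals bounded the other tested members on this scale, which has an offset of 50. Ifit1, Ifi44 and Mx1 had no interval. Differences could be larger in other processing, as for Eif2ak2 (0.69 here, 1.20 with the processed signal), so the bounds hold for this scale only. For the 36 probes that were not called, every 95% interval lay within 1 log2 unit of 0 in either direction, and for 28 of them within 0.5. A difference of 1 log2 unit or more was thus outside the interval of each of these 36 probes, while smaller differences lay inside some of these intervals.

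The mice of one strain differed in the general level of these genes. The B6 mouse of replicate 3 lay above its strain mean at 36 of 41 probes and was the highest B6 mouse at 24 (58.5%, against 19.2% of all tested probes), with a median deviation of 0.09. The B6 mouse of replicate 4 was the lowest at 21 (51.2%, against 23.3%), with a median deviation of -0.10. In BTBR, the mouse of replicate 3 was the lowest at 21 probes (51.2%, against 32% of all probes), with a median deviation of -0.11. Without the B6 mouse of replicate 3 the median difference of the 41 probes was 0.01 in place of -0.05. The same B6 mouse had the highest summed intensity (linear, normalized, 1 probe per gene) of 10 meningeal fibroblast markers among B6 mice (57831, the others 21695 to 35632) and of 10 endothelial markers (66773, the others 55370 to 60421). Among B6 mice it was also the highest for the astrocyte (525797) and choroid plexus (36713) sums. The B6 mouse of replicate 4 had the lowest sums of all mice for 6 blood markers (39842, the others 53837 to 200403) and for 7 choroid plexus markers (15243, the others 15764 to 61988). Among B6 mice it was also the lowest for the astrocyte (500178) and microglial (98282) sums. The BTBR mouse of replicate 3 had the lowest summed intensity of 8 astrocyte markers of all mice (380433, the others 474714 to 525797). It had the highest sums of the blood markers (200403, the others 39842 to 80156) and of the hippocampal neuron markers (395687, the others 276856 to 348374). In the remaining lists none of the mice singled out here was the highest or lowest of its strain. The astrocyte sum leans on the brightest genes, led by Aldoc. Gfap, at its brightest probe, read 12.88 in the BTBR mouse of replicate 3, the highest of the BTBR mice. The part of these cell types in the levels of the interferon-induced genes was not tested.

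**Figure D3:**
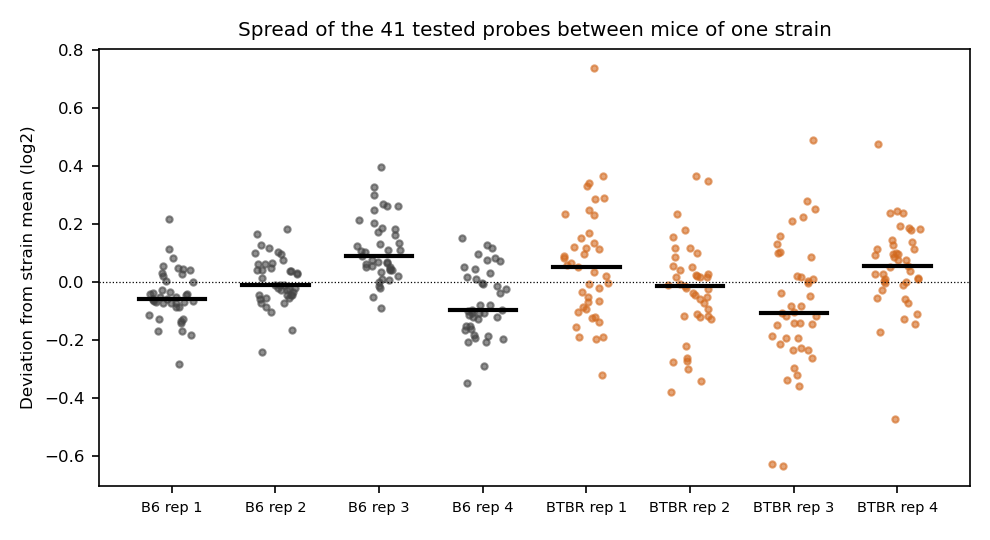
Deviation of each of the 41 tested probes from the mean of its strain, in log2 units, for every mouse. Points are probes and black bars are medians; the B6 mouse of replicate 3 sits above 0 (median 0.09), and those of B6 replicate 4 and BTBR replicate 3 sit below (medians -0.10 and -0.11).

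The share of called marker probes lay above the 7.61% of all tested probes for microglia and astrocytes and below it for the other cell types, with no test of these shares. Of 19 tested probes of 13 microglial genes, limma called 6 lower and 2 higher (42.1%), with summed intensities of 98282 to 106163 in B6 and 80257 to 104068 in BTBR mice. Of 18 probes of 8 astrocyte genes, 4 were called lower (22.2%), with sums of 500178 to 525797 in B6 and 380433 to 505345 in BTBR mice. All of these astrocyte calls were probes of Gfap or Aldoc, and the brighter Aldoc probe was not called. No probe of Aldh1l1, Aqp4, Gja1, S100b, Slc1a2 or Slc1a3 was called, so the astrocyte share came from Gfap and Aldoc alone. Among 14 meningeal fibroblast probes 1 was called higher (7.14%), 4 had an unadjusted limma p under 0.05 and 4 differed by more than 1 log2 unit. Differences above 0 were seen for 12 of these 14, 10 of 14 endothelial, 6 of 6 blood and 11 of 11 choroid plexus probes. Limma called none of 14 endothelial, 6 blood and 11 choroid plexus probes, of which 1, 0 and 0 had an unadjusted p under 0.05, although choroid plexus sums were 61988 and 59918 in the BTBR mice of slide 1 and at most 36713 in all others. All 8 hippocampal neuron markers were tested and 1 of their 18 probes was called lower (5.56%). Every gene of these lists that the array names had a tested probe. Some were not well above background in every mouse, such as Aqp1 and S100a8, each in 3 B6 and 3 BTBR mice. The part of microglia, astrocytes or choroid plexus in the 5 calls was not tested.

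Other probes around the called genes were counted as well. Within 1 Mb of the Igtp probe, 13 of 51 tested probes were called (25.5%), 11 of them lower, among them Irgm2 next to it. Around Trim25 this was 7 of 24 (29.2%) and around Eif2ak2 9 of 36 (25%), whereas around Xaf1 it was 3 of 40 (7.5%) and around Irf9 8 of 81 (9.88%). Set beside 7.61% of all tested probes, the share was higher around Igtp, Trim25, Eif2ak2 and, by less, Irf9, and slightly lower around Xaf1. The part of these neighborhoods in the 5 calls was not tested. As for promoters, 2 of the 5 called genes (Eif2ak2, Igtp) had an ISRE core and 3 (Irf9, Trim25, Xaf1) had no match in their windows.

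The interferon pathway beyond these 37 genes was followed with 121 further genes on the array. Of their 135 tested probes, 14 were called (10.4%, against 7.61% of all), 4 higher and 10 lower in BTBR hippocampus, and the median difference was -0.01. Of 12 interferon genes with a probe, 6 were well enough above background to be tested, and limma called none of their 6 probes at an adjusted or an unadjusted p under 0.05. Of 13 probes of receptors and Janus kinases, limma called 0, and 2 had an unadjusted p under 0.05. Their differences ran from -0.49 to 0.43. The receptor chain Ifnar1 differed by -0.01 and Ifnar2 by -0.12 and -0.11 at its 2 probes, none of them called.

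Of 18 probes of sensing adaptors, kinases and IRFs, 1 was called higher and 1 lower. Mb21d1, the DNA sensor cGAS, differed by -0.52 (limma adjusted p = 0.00547, and -0.999 with the processed signal). Tlr9, the endosomal receptor for DNA, differed by 0.39 (limma adjusted p = 0.00682). Within slide 2 both calls were lost (limma adjusted p = 0.0983 for Mb21d1 and 0.148 for Tlr9). Among 21 probes of negative regulators, Irf2bp1, a corepressor of Irf2, was the single call at 0.34 (limma adjusted p = 0.0481), and this call was kept in 1 of the 8 fits that left out a mouse. The further interferon-induced genes, 58 of them tested with 77 probes, held 9 of the 10 lower calls and 2 of the 4 higher ones (14.3% called in all).

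The largest falls of the pathway were in this last list. Ifi203, a DNA-binding protein of the p200 family, read 9.48, 9.28, 9.53 and 10.11 in the B6 mice and 8.12, 8.13, 8.08 and 8.20 in the BTBR mice, a difference of -1.47 ± 0.16 (SE, n = 4 mice per strain, limma adjusted p = 0.00047). The Ifi203 probe was well above background in 4 B6 and 3 BTBR mice, and the size of its fall depended on the processing, at -2.73 with the processed signal and -1.09 in the deposited matrix. Irgm2, the GTPase neighbor of Igtp at chr11:58036064-58036123, read 10.44, 10.49, 10.66 and 10.50 in the B6 mice and 9.30, 9.32, 9.44 and 9.50 in the BTBR mice, a difference of -1.13 ± 0.08 (SE, n = 4 mice per strain, limma adjusted p = 2.06e-05). Both exceed any fall among the 37 genes. Cmpk2, a mitochondrial nucleotide kinase, fell at both of its probes, by 0.55 (limma adjusted p = 0.00105) and by 0.33 (limma adjusted p = 0.0402), the second of which was kept in 1 of the 8 fits that left out a mouse. The first of these probes was well above background in 4 B6 and 3 BTBR mice, and its difference was -1.47 with the processed signal and -0.34 in the deposited matrix.

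**Figure D4:**
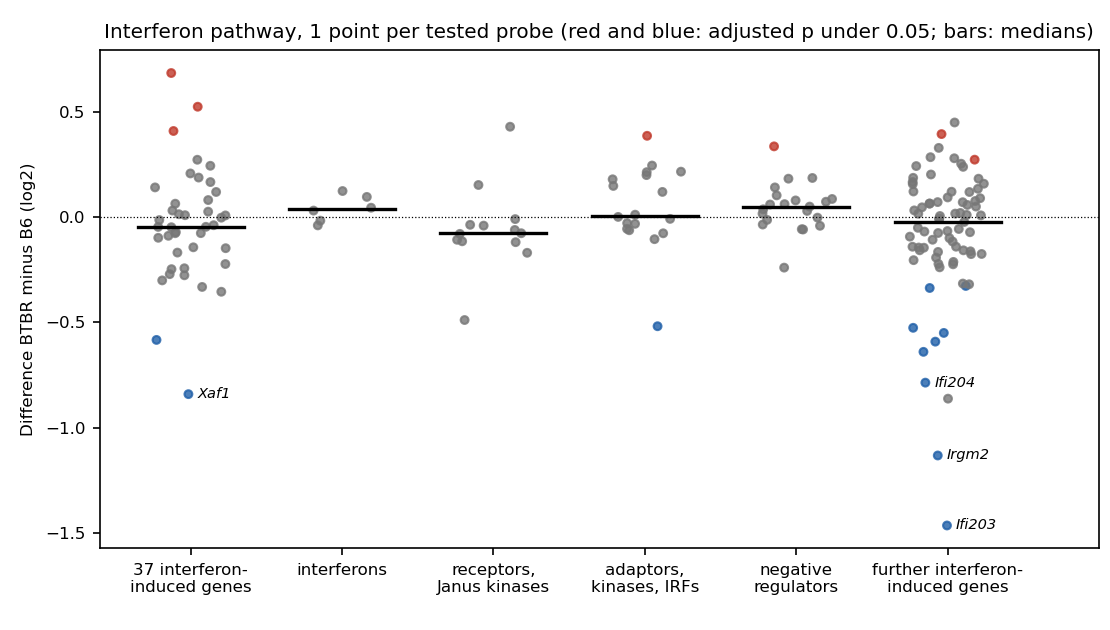
Difference between BTBR and B6 hippocampus for the interferon-induced genes and for 5 further lists of the interferon pathway, 1 point per tested probe, on the log2 scale. Red and blue mark an adjusted p under 0.05 and bars are medians, which lie between -0.08 and 0.05; the lowest points are Ifi203 and Irgm2, and no interferon gene is called.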

How the data were processed

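Spot intensity and local background were deposited by the authors as Agilent's Feature Extraction software wrote them, with no scaling between arrays (version 10.7.3.1 per the file headers, 9.1 per the submitters' processing notes). The well-above-background, saturation and outlier flags are the same software's, as deposited. A deposited matrix of log2 values, which the authors had background subtracted and quantile normalized, served as an alternative. Their column medians were 8.82 to 8.83, and they ranked like the scanner values. The methods name the Agi4x44PreProcess package at its defaults, without spelling out the signal column and offset.

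Here the median local background was taken from the mean spot intensity (minimum 0.5, offset 50), followed by log2, quantile normalization and the median over repeated spots. Left out were control probes, dim probes and the 154 probes flagged as outliers. Limma 3.58.1 (R 4.3.3) fitted strain alone to all 27982 tested probes, and the fit was tested on simulated data. The rank product of the methods, other normalizations and filters, blocks, single slides and left-out mice were the alternatives. Marker sums add linear normalized intensities, 1 probe per gene. Named were all called genes, those with an unadjusted p under 0.05, the highest and lowest of each role group, up to 3 called genes per pathway list, and Ifnar1 and Ifnar2. One gene of the pathway lists is not reported here and was left out of their counts. The 37 genes and all lists were chosen with earlier results of these data known. Gene names are those of the array files, and promoters are from RefSeq.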

Additional observations from a re-analysis of the deposited data

Results flagged for a closer look

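In 82 groups of 4 mice, 4 held a mouse far from the other 3, where chance gives about 1 in 20 groups. These were the B6 mouse of replicate 1 for Eif2ak2, which was low at 8.27 (nearest 8.64), and the B6 mouse of replicate 3, which was high for Irf9 at 10.63 (nearest 10.41) and for Oas1a at 8.47 (nearest 8.22). The fourth was the BTBR mouse of replicate 2, low for Oasl2 at 9.00 (nearest 9.36).

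In probes outside the tests, 3 were well above background in some BTBR mice and in no B6 mouse. The highest BTBR level was 7.97 for Ifit1 and 7.92 for the second Irf9 probe, and the levels of the strains overlapped at both, so no fold is given. A further Sp100 probe, not tested, reached 8.97 in the BTBR mouse of replicate 3 and was not well above background in the other 7 mice. Its BTBR mean was at least 1.12-fold higher, and without that 1 mouse the BTBR mean lay below the B6 mean by 0.07 on the log2 scale.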

How the results depend on the processing

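The 5 calls kept their direction under all 22 alternatives. Xaf1 was called in all of them, Eif2ak2 in 21, Trim25 in 20, Igtp in 19 and Irf9 in 16. Higher calls among the 41 probes numbered 1 with the rank product and 0 within slide 2, in place of 3, and 2 to 3 with single mice left out. Lower calls numbered 1 with the rank product, 4 with slide as a block, 3 within slide 1 (Xaf1, Irf1 and Iigp1, with Igtp lost) and 1 within slide 2, in place of 2, and 2 to 3 with single mice left out. The median difference stayed between -0.07 and 0.01 with single mice left out and was 0.01 within slide 1. Higher calls in the further pathway were 0 within slide 2 and 1 to 3 with single mice left out (1 without the B6 mouse of replicate 2, 2 without the BTBR mouse of replicate 4), in place of 4, and lower calls were 6 within slide 2, in place of 10, and 7 to 10 with single mice left out. Fits within 1 slide rest on 2 mice per strain. The cause was not tested for any of these changes.

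Deviations of mice with equal replicate numbers correlated at -0.14, 0.51, -0.10 and 0.39. Those with unequal numbers correlated from -0.50 to 0.37, so the highest values were those of equal numbers 2 and 4. Such correlations cannot decide whether replicate numbers paired the mice. With the replicate block, 1650 of all tested probes were called in place of 2129, Irf9 was lost (limma adjusted p = 0.0741) and the further pathway held 1 higher call. Irf9 was also lost with median centring, with the rank product and within slide 2, Eif2ak2 within slide 2, Trim25 with the rank product and within slide 2, and Igtp with the rank product and within either slide. The processed signal moved Eif2ak2 to 1.20, Ifi203 to -2.73, the first Cmpk2 probe to -1.47 and Mb21d1 to -0.999.

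The slides gave opposite signs for 19 of the 41 probes (46.3%, against 43.2% of all tested probes) and for 0 of the 5 called ones. Sign changes were followed under the alternatives for the uncalled probes named by the rule given above and for Iigp1 and Lgals3bp, whose differences lay well away from 0. With median centring Psmb9 gave -0.019, and with the processed signal Ifnar1 gave 0.022. Within slide 1 the differences were 0.0084 for Usp18, -0.15 for Parp9, -0.22 for Psmb9, 0.19 for the distant Ifitm2 probe, 0.30 for Lgals3bp, 0.068 for the second Ifnar2 probe and 0.039 for Ifnar1. Within slide 2 they were 0.11 for Iigp1 and 0.072 for Oasl2. Outside that choice, sign changes were seen within slide 1 for Irf7 (0.11), Dhx58 (0.032), the second Sp100 probe (0.022), an Adar probe (0.0084) and Ddx58 (0.0080), and within slide 2 for the first Ifitm2 probe (-0.20), a Psmb8 probe (0.067), Bst2 (-0.045), the second Irf1 probe (0.029), Ifit2 (-0.029), Ifit3 (-0.020) and Oas1a (-0.0028). With single mice left out they ran from -0.11 to 0.023 for Usp18, -0.15 to 0.016 for Isg15, -0.092 to 0.053 for Oasl2, -0.17 to 0.031 for the same Ifitm2 probe, -0.029 to 0.12 for Parp14, -0.13 to 0.12 for Parp9, -0.071 to 0.095 for Psmb9 and -0.057 to 0.019 for Ifnar1.

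Signal over background limits the 16 untested probes, and each called member rests on 1 tested probe.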
